A study of Homo sapiens with 7 samples.

Results

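The 43 genes named as proteasome subunits were examined for pThr4, the phosphate on threonine 4 in the C-terminal repeat of RNA polymerase II, in peak lists from chromatin immunoprecipitation with sequencing (ChIP-seq). The members were the protein-coding genes of the RefSeq gene table for GRCh38 whose symbols are PSMA, PSMB, PSMC, PSMD or PSME followed by a number only, and all 43 lay among the 19626 protein-coding genes of chromosomes 1 to 22 and X for which a strand was known. A further 2 protein-coding genes, PSMC3IP and PSME3IP1, match the first letters but encode no subunit and were counted apart. PSMD5, PSMD9 and PSMD10 encode chaperones of base assembly, but their symbols match in full, so they are counted here as subunit genes. The rule used symbols and no measured value, but it was chosen with earlier results of these data known. The cells were HEK293, a line established from human embryonic kidney, and were fixed with formaldehyde. Nuclear lysate of these cells was divided, and aliquots received either active SCP1 phosphatase (labelled WT, 3 biological replicates) or the catalytically inactive SCP1 mutant D96A (3 biological replicates) before immunoprecipitation with the pThr4 antibody 6D7. Both groups therefore carried added SCP1 protein and differed in its activity, which acted on lysate and not in living cells. The comparison was designed to find places where pThr4 becomes detectable once the neighbouring phosphoserine has been removed. An IgG precipitation of the series was not analysed here, and how the matched aliquots map onto the replicate numbers is not given in the sources used here.

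The proteasome is the main protease of the cytosol and nucleus and degrades proteins that carry ubiquitin chains. Its core particle is a barrel of stacked rings, in which alpha subunits (PSMA) form the gate and beta subunits (PSMB) carry the proteolytic sites inside. A regulatory particle with a ring of ATPases (PSMC) and a set of non-ATPase subunits (PSMD) binds, deubiquitinates and unfolds the substrate, and other activators (PSME) can cap the barrel in its place. The genes are scattered over many chromosomes and are expressed together in most cells, with NFE2L1 as a known activator when proteasome activity falls. Near the end of a gene, RNA polymerase II passes the cleavage and polyadenylation site and goes on transcribing before it leaves the template, and pThr4 has been linked to this late stage.

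Each library had its own list of peaks, with a fold enrichment and a −log10 p-value for every peak. The lists of the active group held 12658, 6700 and 36988 peaks in replicates 1, 2 and 3, and those of the inactive group held 2477, 1171 and 2709. Read depth is unknown, so a place without a listed peak was not detected at the cutoff of that list and cannot be called free of pThr4. Fold enrichments describe a peak inside its own list and have no common scale between libraries. The peak names of replicates 1 and 2 share a number that those of replicate 3 lack in both groups, and the label of that number is not explained. For each gene, 3 windows were searched for any overlap with a peak. The promoter window ran 1000 bp to either side of the transcription start site (TSS), the gene body from there to the transcription end site (TES), and the downstream window over the 5000 bp after the TES. TSS and TES are the outer ends of the gene in the table, so exons and introns were not told apart.

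Peaks were most frequent downstream of the subunit genes and rare at their promoters. In the active libraries 21, 21 and 32 of the 43 genes had a peak downstream in replicates 1, 2 and 3, against 15, 15 and 28 in the gene body and 1, 3 and 8 at the promoter. The inactive libraries gave 11, 4 and 11 genes downstream, 7, 2 and 7 in the gene body and 1 in each library at the promoter. The share of subunit genes with a downstream peak averaged 57.4% ± 14.8 over the active libraries and 20.2% ± 9.40 over the inactive ones (SD, n = 3 each), and the ranges of the groups did not meet. Over all protein-coding genes the same shares were 28.0% ± 10.4 and 8.70% ± 3.00 (SD, n = 3 each). Within each library, the share of subunit genes was 1.89 to 2.59 times the share of all genes in the active group and 1.77 to 2.52 times in the inactive group. In the gene body it was 1.26 to 2.0 times with active SCP1, where 27.7, 17.5 and 50.9% of all genes had a peak, and 1.43 to 2.35 times with inactive SCP1. At promoters that ratio ran from 0.330 to 1.56 in the active group and from 0.907 to 2.58 in the inactive group, where each value rested on 1 gene.

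**Figure D1:**
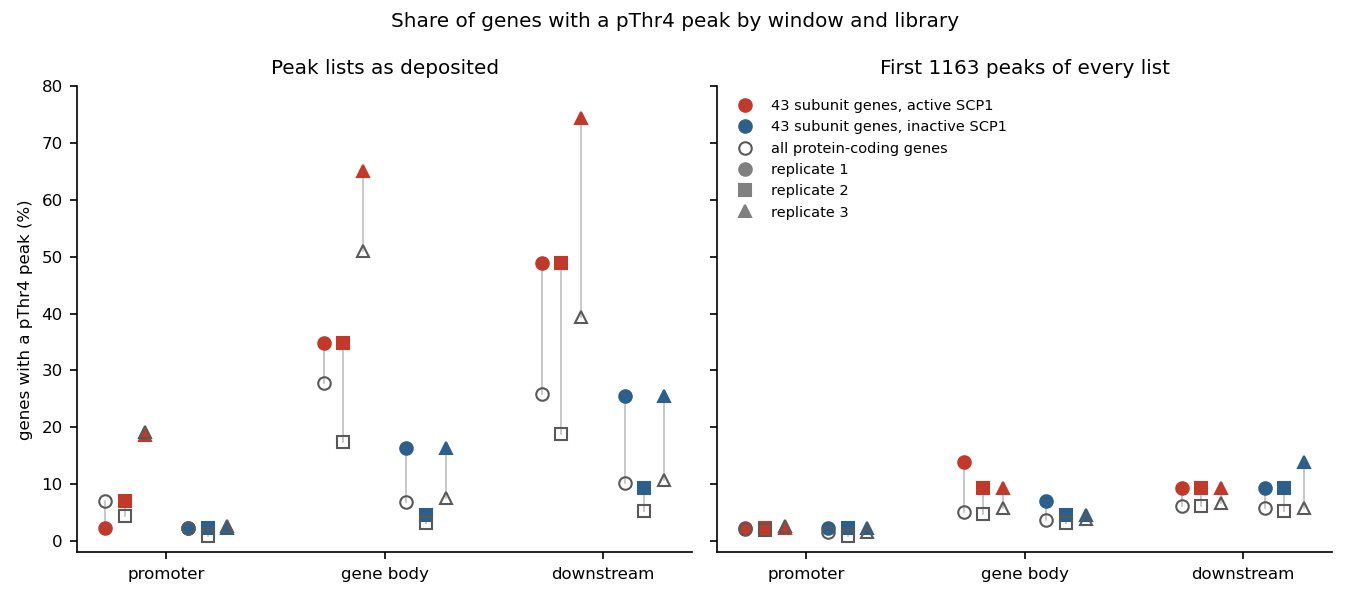
Percentage of genes with a pThr4 peak over the promoter, gene body and downstream window (horizontal axis) in each library, for the 43 subunit genes (filled, red with active and blue with inactive SCP1) and all 19626 protein-coding genes (open), with symbols for the replicates and grey lines joining the values of 1 library. The left panel uses the lists as deposited, where the downstream values of the active group reach 74.4% for the subunit genes, and the right panel uses the 1163 peaks with the highest −log10 p-values of each list, where no downstream value exceeds 14.0%.

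The group difference moved with the length of the lists. With every list reduced to the 1163 peaks of highest −log10 p-value that the shortest list holds, 4 subunit genes had a downstream peak in each active library, and 4, 4 and 6 had one in the inactive libraries. The mean difference between active and inactive SCP1 was then -0.667 genes, compared with 16 ± 5.32 (pooled SD) genes in the lists as deposited. PSMD11 was the only subunit gene with a downstream peak in all 6 reduced lists. In the reduced lists the share of subunit genes was 1.39 to 1.51 times that of all protein-coding genes with active SCP1. It was 1.61 to 2.41 times that share with inactive SCP1. These ratios rest on few genes: the 4 genes of each active library are 9.30%, against 6.23, 6.17 and 6.67% of all genes. With peaks of a −log10 p-value of at least 6 taken from every list, the active libraries held 6 ± 2.65 and the inactive libraries 2.33 ± 1.53 subunit genes downstream (SD, n = 3 each). These are 14.0% and 5.43% of the subunit genes, beside 8.45% and 3.81% of all protein-coding genes. The ratio of these shares ran from 1.39 to 1.98 in the active group and from 0.530 to 2.17 in the inactive group, where inactive replicate 1 had 1 of 43 subunit genes against 4.39% of all genes.

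Promoter peaks were found for 8 subunit genes, against 20.0% of all protein-coding genes, and 35 had none in any library. All 8 were listed in active replicate 3, where they were 18.6% of the subunit genes against 19.2% of all genes. PSMB10, which encodes the beta subunit that replaces PSMB7 in the interferon-induced immunoproteasome, was the only one with a peak at its promoter in all 6 libraries, while 0.825% of all protein-coding genes had this pattern. Fold enrichments of its strongest peak were 4.94, 4.71 and 4.14 in active replicates 1, 2 and 3 and 4.37, 3.64 and 4.18 in inactive replicates 1, 2 and 3. The corresponding −log10 p-values were 10.5, 8.97 and 6.98 with active and 7.13, 5.60 and 6.59 with inactive SCP1. The length of the promoter window under peaks was 948, 897 and 2001 bp with active and 1138, 713 and 689 bp with inactive SCP1, so the groups overlapped (two-sided exact permutation test, p = 0.4). The gene is 2345 bp long, and the same peak covered part of its gene body in every library. It also overlapped the downstream window of LCAT in all 6 libraries. In active replicate 3 this peak was 16001 bp wide and ran on over the neighbours LCAT and SLC12A4. Counted as the strongest peak of a gene in a library, 13 of the 15 promoter peaks of subunit genes overlapped another protein-coding gene's downstream window. There the signal of the neighbour and of the subunit gene cannot be told apart in peak lists.

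A promoter peak in 2 of 3 active libraries and in no inactive library was listed for PSMA4 and PSMA6, which both encode alpha-ring subunits. For PSMA4 the fold enrichments were 3.24 and 4.26 in active replicates 2 and 3, with −log10 p-values of 4.60 and 7.52. For PSMA6 they were 3.86 and 3.32 in the same libraries, with −log10 p-values of 5.04 and 4.02. The PSMA4 peaks also overlapped the downstream window of HYKK, and the PSMA6 peaks that of PRORP. The remaining 5 genes, PSMA7, PSMB3, PSMB8, PSMC5 and PSMC6, had a promoter peak in active replicate 3 alone, whose list was the longest. No subunit gene had promoter peaks in each of the 3 active libraries and in none of the inactive ones, a pattern seen in 1.28% of all protein-coding genes. None had a longer peak-covered promoter in every active than in every inactive library, which 2.93% of all genes did.

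The start used matters for PSMA6. The gene table begins 13759 bp before the start in the RefSeq promoter table, and the strongest peaks inside the gene body of PSMA6 lay at or just after that second start. Their fold enrichments were 4.85, 4.70 and 4.57 with active SCP1 and 3.71 and 4.0 in inactive replicates 1 and 3, with none listed in inactive replicate 2. Their −log10 p-values were 8.35, 7.62 and 7.59 with active and 4.97 and 5.51 with inactive SCP1. The inner start of PSMA6 was thus listed in 5 of 6 libraries and its outer end in 2 of 6. PSMA1, another alpha-ring gene, has starts 123276 bp apart in the tables, and no promoter peak was listed at its outer start.

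The sequence before the start is shown for PSMB10, PSMA6 and PSMA4, the genes with promoter-window peaks in at least 2 libraries of a group. For PSMB10 and PSMA4 it lies inside the promoter window, and for PSMA6 it lies before the inner start, where the gene-body peaks were found, and not under the promoter-window peaks at the outer end. Each line holds the 250 bases before the start of the RefSeq promoter table (GRCh38.p14), 5′ to 3′ on the strand of the gene. Capitals mark GGGCGG, the GC box bound by SP1-type factors, on either strand.
PSMB10 (chr16:67936851-67937100, minus strand): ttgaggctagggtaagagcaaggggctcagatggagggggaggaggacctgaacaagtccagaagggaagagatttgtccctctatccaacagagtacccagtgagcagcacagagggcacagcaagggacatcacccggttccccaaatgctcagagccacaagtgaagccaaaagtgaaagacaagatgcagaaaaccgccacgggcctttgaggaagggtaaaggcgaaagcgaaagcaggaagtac
PSMA6 (chr14:35292067-35292316, plus strand): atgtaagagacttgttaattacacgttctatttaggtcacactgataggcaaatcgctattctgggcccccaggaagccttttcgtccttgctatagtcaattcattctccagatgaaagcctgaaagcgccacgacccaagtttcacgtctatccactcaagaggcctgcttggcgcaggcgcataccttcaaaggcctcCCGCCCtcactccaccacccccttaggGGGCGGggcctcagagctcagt
PSMA4 (chr15:78540155-78540404, plus strand): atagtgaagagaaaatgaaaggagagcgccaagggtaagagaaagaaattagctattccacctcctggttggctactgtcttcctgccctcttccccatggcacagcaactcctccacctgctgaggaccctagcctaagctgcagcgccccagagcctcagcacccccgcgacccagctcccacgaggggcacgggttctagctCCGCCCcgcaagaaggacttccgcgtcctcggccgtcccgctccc
Peaks reached all 250 of these bases at PSMB10 in active replicate 3 and 137 of them in inactive replicate 1, and none in the other 4 libraries, where the peak began inside the gene. At PSMA6 gene-body peaks covered 115 bases in active replicate 1 and all 250 in active replicate 3. At PSMA4 they covered 125 and 153 bases in active replicates 2 and 3.

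Promoter entries, which run from 250 bases before to 50 bases after a start, were matched for 38 of the 43 genes. The entry was missing for PSMA7, PSMB1, PSMB6, PSMB7 and PSMD4. GGGCGG was present, on either strand, in 25 of the 38 entries (65.8%) and in 58.3% of the 15811 entries of protein-coding genes. CCAAT, the box bound by NF-Y, was present in 18 (47.4%, against 36.4% of all entries), and TATAAA, the core of the TATA box, in 5 (13.2%, against 9.75%). CCGGAAG, an ETS-type motif, was found in 12 (31.6%, against 14.1%). TGACNNNGC, the core of the element read by NFE2L1 and its relatives, was found in 11 (28.9%, against 14.4%), namely PSMB3, PSMB9, PSMC4, PSMD1, PSMD3, PSMD5, PSMD9, PSMD12, PSME1, PSME2 and PSME4. None of these 11 had a promoter peak in more than 1 library, but only 3 of all 43 subunit genes did. The motif hits are matches of letters in a fixed window. No factor binding was measured, and a link between motifs and peaks was not tested.

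Downstream of the TES, the share of genes under a peak rose to a maximum within 1250 bp and then declined. In 250-bp bins, taking the first bin where several tied, the highest share of subunit genes was 34.9% at 750 to 1000 bp after the TES in active replicate 1, 27.9% at 500 to 750 bp in replicate 2 and 46.5% at 500 to 750 bp in replicate 3. The maxima in the inactive libraries were 16.3% at 1000 to 1250 bp, 6.98% at 500 to 750 bp and 16.3% at 750 to 1000 bp. Over all protein-coding genes the maximum fell at 750 to 1000 bp in all 6 libraries, at 14.6, 10.2 and 22.1% with active and 4.99, 2.50 and 5.28% with inactive SCP1. The position of the maximum was therefore alike in the 2 groups, to within 2 bins for the subunit genes. At 10 kb the subunit genes were covered in 4.65, 0 and 9.30% of cases with active SCP1, against 3.21, 1.61 and 7.50% of all genes.

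**Figure D2:**
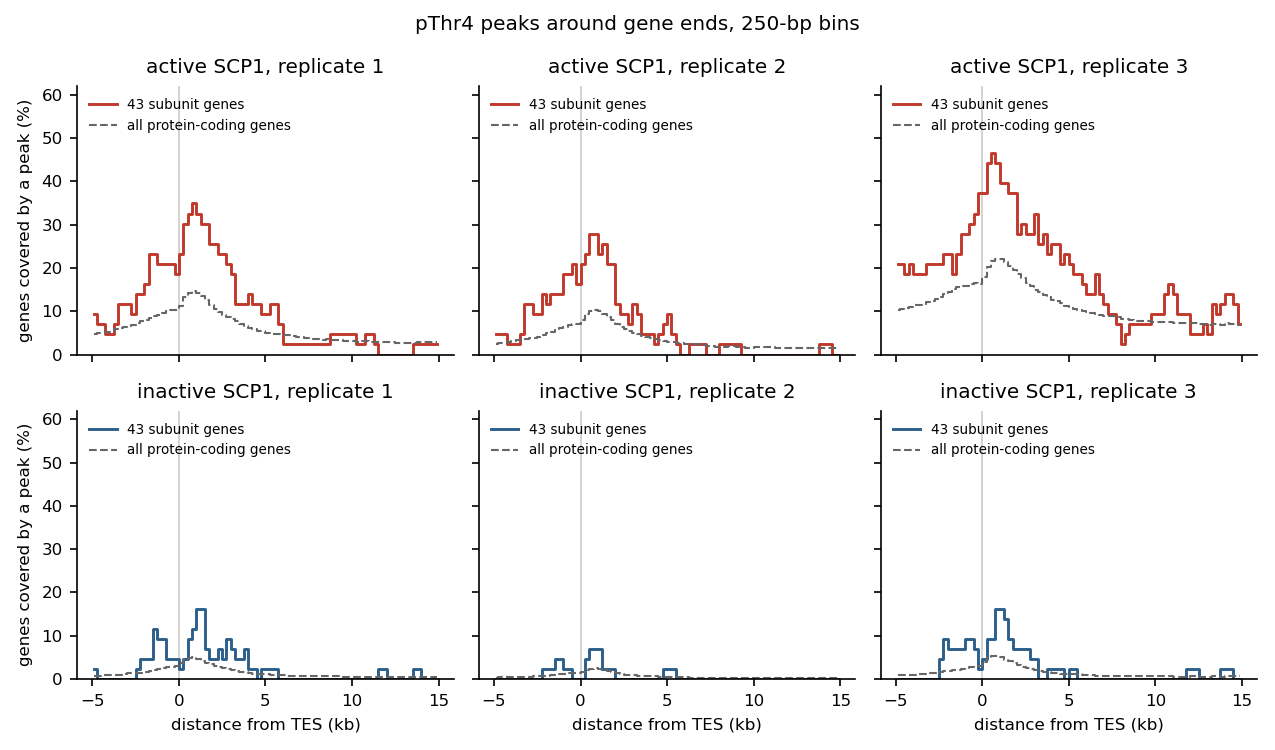
Percentage of genes covered by a pThr4 peak (vertical axis) in 250-bp bins from 5 kb before to 15 kb after the TES (horizontal axis), one panel per library, for the 43 subunit genes (solid) and all 19626 protein-coding genes (dashed). The curves of both gene sets are highest within 1250 bp after the TES in all 6 libraries, and the maximum of the subunit genes runs from 6.98% to 46.5%.

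The 100 downstream peaks, counted as the strongest peak of a gene in a library, had a median width of 1247 bp, a median fold enrichment of 3.64 and a median −log10 p-value of 5.19. Of these, 32 spanned the TES and 68 began after it. Another protein-coding gene often shared the place: 23 also overlapped the promoter window of another gene, 34 a gene body and 33 another downstream window, and 41 touched no window of another protein-coding gene. A downstream window with part of another gene of any kind was present for 27 of the 43 subunit genes. For these, the signal of the neighbour and of the subunit gene cannot be told apart in peak lists.

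A downstream peak in all 6 libraries was listed for 3 subunit genes (4.46% of all protein-coding genes had one), namely PSMD11, PSMC3 and PSMA7. PSMD11 encodes a lid subunit that holds the regulatory particle to the core, and its peaks had the highest −log10 p-value of any downstream peak of a subunit gene in active replicates 1 and 2 and inactive replicates 1 and 3. Fold enrichments at PSMD11 were 4.63, 5.66 and 5.33 with active and 4.52, 3.73 and 4.58 with inactive SCP1. The −log10 p-values were 8.53, 11.4 and 10.8 with active and 7.38, 5.72 and 7.40 with inactive SCP1. The peak of active replicate 2, at chr17:32483461-32484646, ranked 121 of its list. Peaks covered 2542, 1682 and 4619 bp of the window with active and 1304, 694 and 1168 bp with inactive SCP1. The gene CDK5R1 begins 3674 bp after the TES, and the peak of active replicate 3 overlapped the promoter window of CDK5R1. Further peaks lay 2694 to 3644, 3000 to 3495 and 2897 to 3186 bp after the TES in active replicates 1 and 2 and inactive replicate 1. All of these count in the covered length, where the signal of CDK5R1 and PSMD11 cannot be told apart. The groups did not overlap in covered length, with means of 2948 ± 1509.9 and 1055 ± 320 bp (SD, n = 3 each, two-sided exact permutation test, p = 0.1). The value 0.1 is the smallest that this test can give with 3 against 3 libraries.

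PSMC3 encodes an ATPase of the base and lies tail to tail with SLC39A13, whose end is 2275 bp from the TES of PSMC3. Its fold enrichments were 3.70, 4.10 and 4.41 with active and 4.0, 4.54 and 4.17 with inactive SCP1, and its −log10 p-values were 4.96, 5.76 and 6.88 with active and 5.28, 6.84 and 5.62 with inactive SCP1. The covered length overlapped between the groups, at 2904, 788 and 3578 bp with active and 865, 1229 and 1044 bp with inactive SCP1 (exact permutation test, p = 0.4). PSMA7, an alpha-ring gene next to the end of LSM14B, had fold enrichments of 4.06, 4.60 and 3.91 with active and 4.24, 3.90 and 4.69 with inactive SCP1. Its −log10 p-values were 6.03, 7.13 and 5.72 with active and 5.96, 5.50 and 6.90 with inactive SCP1. The inactive peaks of PSMA7 were short and lay between 251 and 1302 bp after the TES. In the active libraries the peaks at the same place spanned the TES, and they covered 2194, 1950 and 3791 bp of the window against 646, 808 and 957 bp.

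Downstream peaks in each active library and in none of the inactive ones were listed for 5 subunit genes (11.6%), against 5.45% of all protein-coding genes. They were PSMA2 of the alpha ring, PSMB1 and PSMB2 of the beta ring, PSMB5, the beta subunit with chymotrypsin-like activity, and the ATPase gene PSMC5. No subunit gene, and no protein-coding gene, had a downstream peak in all 3 inactive and no active libraries. PSMB1 and PSMB5 had no other protein-coding gene in the window. Fold enrichments at PSMB1 were 3.07, 2.95 and 3.18, with −log10 p-values of 4.54, 4.36 and 4.99. At PSMB5 they were 3.38, 3.31 and 3.58, with −log10 p-values of 4.59, 4.41 and 5.14. The peaks of PSMB5 lay between 295 and 1481 bp after the TES, and those of PSMB1 between 1001 and 3207 bp.

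Fold enrichments downstream of PSMB2 were 3.94, 3.47 and 3.53, with −log10 p-values of 5.78, 4.70 and 4.79. These peaks began 358 to 551 bp after the TES and covered 4214, 2006 and 4619 bp of the window, and in active replicates 1 and 3 they reached the body of the convergent gene TFAP2E. PSMC5 had fold enrichments of 3.32, 3.58 and 3.68 and −log10 p-values of 5.01, 5.90 and 6.25. Its peaks began inside the gene and ran over the TES into SMARCD2, whose end lies 62 bp from that of PSMC5. PSMA2 had fold enrichments of 3.41, 3.63 and 3.43 and −log10 p-values of 5.03, 5.42 and 5.05. Its peaks lay 4534 to 5020 bp after the TES, over the promoter window of C7orf25, and would fall outside a shorter window.

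**Figure D3:**
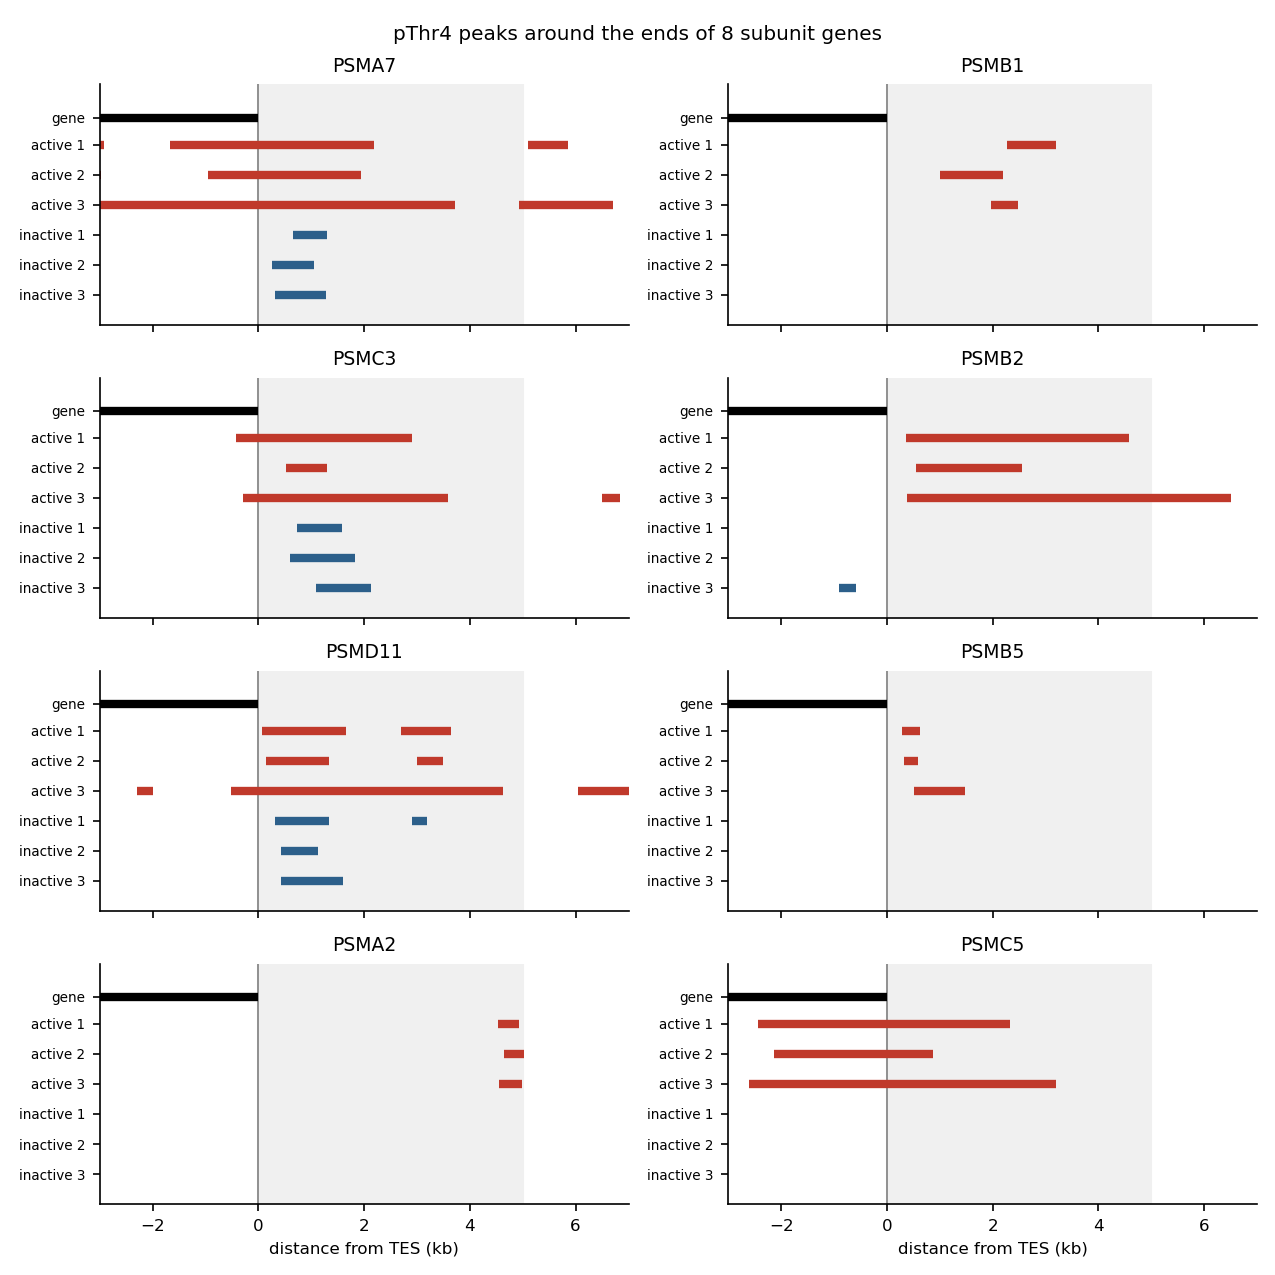
Positions of pThr4 peaks (bars) around the TES of the 8 subunit genes with a downstream peak in all 6 libraries (PSMA7, PSMC3, PSMD11) or in the 3 active libraries alone (PSMA2, PSMB1, PSMB2, PSMB5, PSMC5), by library (rows, red with active and blue with inactive SCP1). The horizontal axis is the distance from the TES in kb, the black bar is the end of the gene, the shaded area is the 5-kb downstream window, and bars are cut at the edges of the panel. The downstream peaks of PSMA2 sit near 5 kb, while the strongest downstream peaks of the other 7 genes begin nearer to the TES.

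Measured as covered length, 13 subunit genes (30.2%) had more of the downstream window under peaks in every active library than in any inactive library, which held for 13.2% of all protein-coding genes. Of these 13, 10 had another gene in the window. The exact permutation test gave p = 0.1, its smallest value, for each of these 13 genes. That value follows from how they were chosen and adds no support. Beyond PSMA7, PSMD11 and the 5 genes with peaks in active libraries alone, they were PSMB3, PSMB7, PSMC1, PSMD8, PSMD12 and PSME3.

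A downstream peak in at least 2 active libraries was listed for 25 subunit genes (58.1%) and for 25.8% of all protein-coding genes, and the counts by role that follow are to be read against these shares.

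Among the beta-ring genes, PSMB3 had fold enrichments of 3.71, 3.51 and 3.74 with active SCP1 and of 3.77 and 3.58 in inactive replicates 1 and 3, and its −log10 p-values were 5.15, 4.68 and 5.35 with active and 5.06 and 4.53 with inactive SCP1. PSMB7, which encodes the subunit with trypsin-like activity, had fold enrichments of 3.86, 3.47 and 3.91 with active SCP1 and 3.69 in inactive replicate 1, with −log10 p-values of 5.11, 4.30, 5.33 and 4.57. All its downstream peaks overlapped the body of the neighbour NEK6. PSMB4 had a peak in active replicates 2 and 3, with fold enrichments of 3.45 and 3.93 and −log10 p-values of 4.60 and 6.13. Both PSMB4 peaks also overlapped the downstream window of POGZ, and all downstream peaks of PSMB3 overlapped that of PIP4K2B. Altogether 6 of the 7 genes of the constitutive beta ring had a downstream peak in at least 2 active libraries. PSMB6, the gene of the subunit with caspase-like activity, had no peak in any window or library.

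Among the alpha-ring genes, 5 of 8 had a downstream peak in at least 2 active libraries. Those of PSMA1 were enriched 5.08-fold and 7.49-fold in active replicates 1 and 3, the highest values of a subunit gene downstream in those lists, and 3.83-fold and 4.38-fold in inactive replicates 1 and 2, where PSMD11 (4.52) and PSMC3 (4.54) were higher. The −log10 p-values were 7.97 and 14.7 with active and 4.84 and 6.29 with inactive SCP1. These strongest peaks began 4903 to 4986 bp after the TES, at the far edge of the window, and all 4 overlapped the promoter window of COPB1. Peaks covered 1133 and 1545 bp of the window in active replicates 1 and 3, and 21 and 15 bp in inactive replicates 1 and 2. The strongest peaks of these active libraries were 599 and 710 bp wide, so further peaks lay in the window there. PSMA3 had a peak in active replicates 1 and 2 (fold enrichments 3.22 and 3.38, −log10 p-values 4.12 and 4.32), and PSMA6 in active replicates 1 and 3 (3.71 and 3.06, −log10 p-values 5.33 and 3.80). The PSMA3 peaks also lie over the noncoding gene PSMA3-AS1, and peaks carry no strand. PSMA4, PSMA5 and the testis gene PSMA8 had none downstream.

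The immunoproteasome and thymus beta subunits differed from the constitutive ring in these counts. None of PSMB8, PSMB9, PSMB10 and PSMB11 had a downstream peak in more than 1 library, compared with 6 of 7 constitutive genes in at least 2 active libraries. In active replicate 3 alone, PSMB10 lay under the end of its 16001-bp peak and PSMB11 had a weak peak with a fold enrichment of 2.87. Expression of these genes was not measured here, and no test was run on the difference.

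All 6 ATPase genes had a downstream peak in active replicate 3, where 32 of 43 subunit genes and 39.4% of all protein-coding genes had one, and PSMC1, PSMC3, PSMC4 and PSMC5 had one in at least 2 active libraries. PSMC1 had fold enrichments of 4.39, 4.35 and 5.24 with active SCP1 and 4.26 in inactive replicate 3, with −log10 p-values of 6.68, 6.52, 8.86 and 5.94. Each of these peaks began inside the gene and ran over the TES, and also overlapped the body of NRDE2. The groups overlapped at PSMC4, with 0, 419 and 583 bp of its window covered with active and 1726, 0 and 264 bp with inactive SCP1 (exact permutation test, p = 0.9), and the longest value came from inactive replicate 1 alone. Its fold enrichments were 2.86 and 3.06 with active and 3.03 and 2.94 with inactive SCP1, with −log10 p-values of 4.23 and 4.97 and of 4.57 and 4.46.

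Among the 14 non-ATPase genes, 12 had a downstream peak in active replicate 3, the library with 39.4% over all genes, and 8 had one in at least 2 active libraries. PSMD8, a lid subunit gene, had 4299, 4137 and 5000 bp of the window covered with active and 1626, 0 and 2619 bp with inactive SCP1. Its fold enrichments were 3.65, 3.21 and 3.78 with active and 3.46 and 3.23 in inactive replicates 1 and 3, with −log10 p-values of 7.07, 5.40 and 7.96 and of 5.97 and 5.22. All of these PSMD8 peaks overlapped the promoter windows of GGN and SPRED3. PSMD12, also of the lid and without another protein-coding gene under its downstream peaks, had fold enrichments of 3.58, 3.26 and 3.58 with active and 3.69 and 4.35 in inactive replicates 1 and 3. The −log10 p-values at PSMD12 were 5.37, 4.29 and 5.36 with active and 5.06 and 7.06 with inactive SCP1, and the covered lengths were 1659, 1389 and 952 bp against 568, 0 and 428 bp.

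PSMD7, which pairs with the deubiquitinase PSMD14 in the lid, had a downstream peak in all active libraries and in inactive replicate 3. The fold enrichments were 3.95, 3.45 and 3.66 with active and 3.35 with inactive SCP1, the −log10 p-values were 5.92, 4.78, 5.22 and 4.28, and covered lengths overlapped between the groups (exact permutation test, p = 0.2). At PSMD1, a large scaffold of the base, fold enrichments reached 3.13 and 3.51 in active replicates 1 and 3 and 3.39 in inactive replicate 1, with −log10 p-values of 4.14, 5.13 and 4.44. Downstream peaks in 2 active and no inactive libraries were listed for PSMD3, PSMD4 and PSMD6. Their fold enrichments were 2.95 and 2.97 for the lid gene PSMD3 in replicates 2 and 3, 3.22 and 3.32 for PSMD4, a ubiquitin receptor, in replicates 1 and 3, and 4.26 and 3.26 for the lid gene PSMD6 in replicates 2 and 3. The −log10 p-values were 4.50 and 4.99 for PSMD3, 4.12 and 4.29 for PSMD4 and 5.92 and 3.86 for PSMD6. The PSMD6 peaks also lie over the noncoding gene PSMD6-AS2, and peaks carry no strand. PSMD2, PSMD9, PSMD13 and PSMD14 had an active peak in replicate 3 alone, and PSMD5 and PSMD10, chaperones of base assembly, had none.

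Of the activators, PSME3, which encodes the nuclear activator PA28 gamma, had the longest covered lengths, at 3610, 2469 and 5000 bp with active and 1481, 0 and 1645 bp with inactive SCP1. The fold enrichments were 3.71, 4.24 and 4.09 with active and 3.93 and 4.20 in inactive replicates 1 and 3, with −log10 p-values of 5.52, 7.0 and 6.89 and of 5.91 and 6.27. These peaks overlapped the body of AOC2. At PSME4, the gene of the activator PA200, fold enrichments were 3.80 and 3.22 in active replicates 1 and 3, with −log10 p-values of 5.44 and 4.03, over the promoter window of GPR75. PSME1 had no downstream peak, and PSME2 had 1 in active replicate 2, which lay in the body of PSME1.

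**Figure D4:**
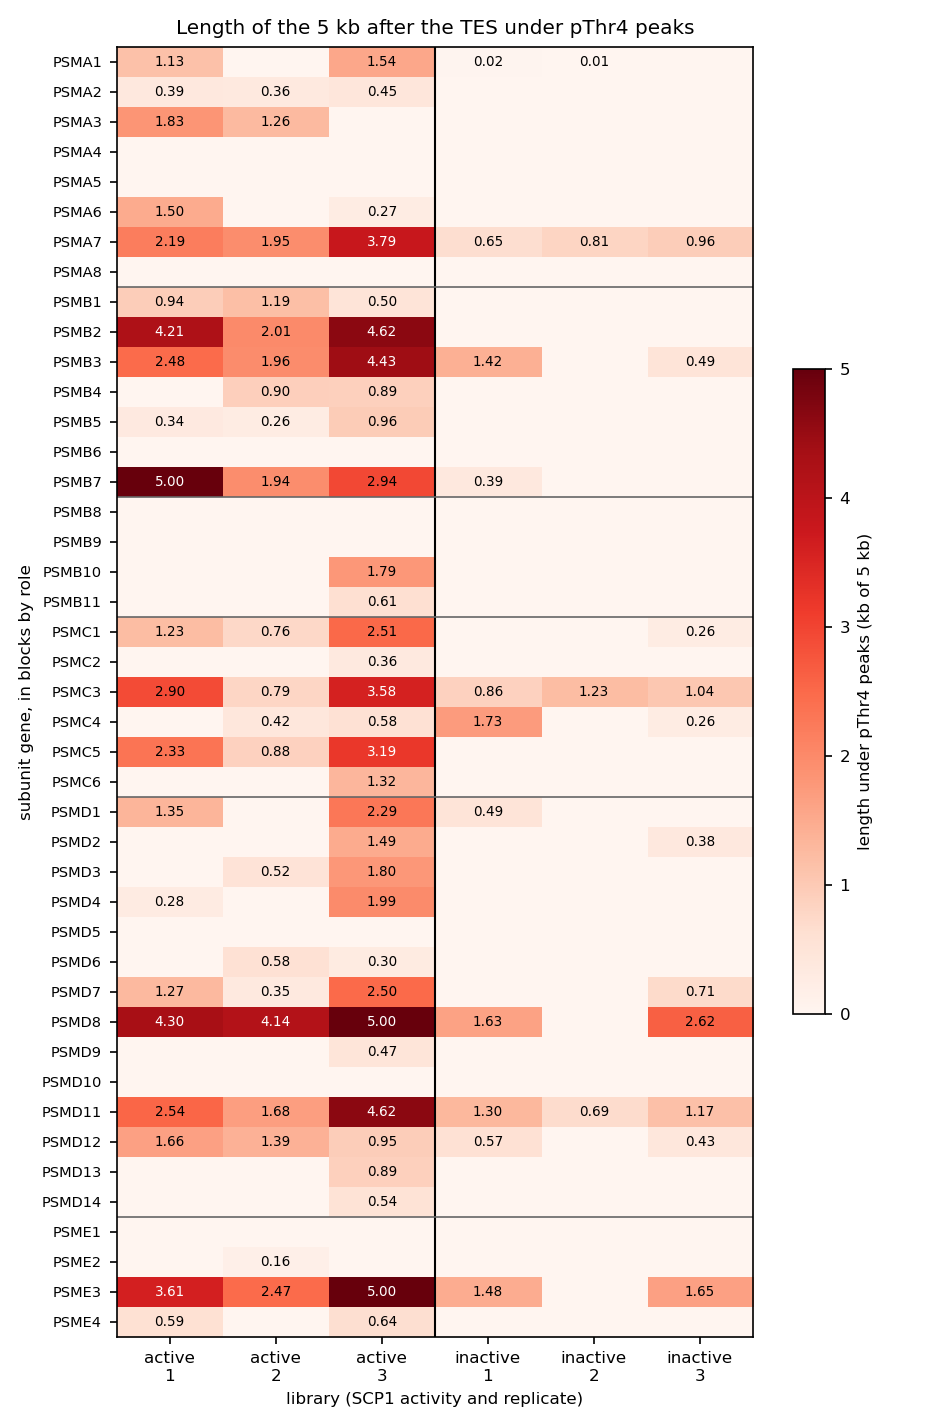
Length under pThr4 peaks (kb, colour and printed value) in the 5-kb window after the TES for each of the 43 subunit genes (rows, in blocks by role from the alpha ring at the top to the activators at the bottom) in each library (columns). Empty cells are 0. Covered length is present in 32 of 43 rows in active replicate 3 and in 4 of 43 in inactive replicate 2, and PSMC4 is the row with a longer value in an inactive library (1726 bp) than in any active one.

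In the gene body, 4 subunit genes had peaks in the 3 active libraries and in no inactive one (PSMA7, PSMB7, PSMC5 and PSMD8, 9.30%), against 6.85% of all protein-coding genes. PSMB10 had one in all 6 libraries, a pattern of 2.53% of all genes. By covered length, 11 (25.6%) were higher in every active than in any inactive library, against 13.0% of all genes. These were PSMA3, PSMA6, PSMA7, PSMB7, PSMB10, PSMC1, PSMC4, PSMC5, PSMD7, PSMD8 and PSMD12. Of the 74 gene-body peaks of subunit genes, 32 spanned the TES. Fold enrichments in the body of PSMA7 were 4.41, 4.60 and 3.91 with active SCP1, with −log10 p-values of 6.85, 7.13 and 5.72. At PSMB7 they were 3.30, 3.40 and 3.43, with −log10 p-values of 3.96, 4.10 and 4.36. For PSMC5 and PSMD8 the strongest gene-body peak was also the strongest downstream peak in each active library.

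The largest covered length in a gene body was that of PSMC1, at 9077, 6026 and 7329 bp with active and 439, 0 and 2109 bp with inactive SCP1. The means were 7477 ± 1531 and 849 ± 1113 bp (SD, n = 3 each, exact permutation test, p = 0.1). In inactive replicate 1 its peak had a fold enrichment of 4.30 and a −log10 p-value of 6.09, and none was listed in inactive replicate 2. The strongest peaks of the active libraries and of inactive replicate 3 were those that ran over the TES. They were 6591, 5269 and 4941 bp wide in active replicates 1, 2 and 3. Other peaks inside the gene therefore made up part of the covered length there. PSMC4 had 3447, 2817 and 6102 bp covered with active and 558, 0 and 0 bp with inactive SCP1. Fold enrichments in PSMC4 were 3.28, 3.33 and 3.28 with active and 2.91 in inactive replicate 1, with −log10 p-values of 5.94, 5.61, 5.85 and 4.43. PSMA3 had fold enrichments of 4.87, 3.79 and 3.71 with active and 3.81 in inactive replicate 3, with −log10 p-values of 8.61, 5.25, 5.18 and 4.90, and 3802, 3257 and 4158 bp against 0, 0 and 328 bp were covered. The antisense gene PSMA3-AS1 lies over the same place, and peaks carry no strand.

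PSMD12 had a gene-body peak that ended ahead of its TES in active replicates 2 and 3 and inactive replicates 2 and 3, apart from the downstream one, while in active replicate 1 a single peak spanned the TES. Its strongest body peaks had fold enrichments of 3.58, 3.70 and 3.60 with active and 4.74 and 3.53 in inactive replicates 2 and 3, with −log10 p-values of 5.37, 5.59 and 5.27 and of 8.14 and 4.67. The covered lengths were 2384, 2287 and 2349 bp with active and 0, 876 and 1035 bp with inactive SCP1. PSMD7 had fold enrichments of 3.95, 3.45 and 3.66 with active and 4.17 and 3.94 in inactive replicates 1 and 3, with −log10 p-values of 5.92, 4.78 and 5.22 and of 6.01 and 5.37. PSMB3 had in its body the same strongest peaks as downstream in the active libraries and in inactive replicate 1.

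Gene-body peaks in 2 active libraries were listed for PSMB4, PSMC3, PSMD6, PSMD11, PSMD14 and PSME1. For PSMB4, and for PSMC3 in active replicates 1 and 3, they were the same peaks as downstream. PSMD11 had a body peak enriched 3.46-fold and 5.33-fold in active replicates 1 and 3 (−log10 p-values 4.88 and 10.8), of which the second reached in from the downstream window. PSMD6 had 3.03 and 3.28 in the same libraries (−log10 p-values 4.01 and 4.08), and PSMD14, the deubiquitinase, 3.82 and 3.12 in active replicates 2 and 3 (5.08 and 3.62). The body peaks of PSMD6 also overlapped the noncoding gene PSMD6-AS1, and peaks carry no strand. PSME1, which forms the interferon-induced activator with PSME2, had 3.12 and 3.17 in active replicates 2 and 3 and 3.46 in inactive replicate 1 (3.99, 4.26 and 4.82). A further 10 genes had a body peak in active replicate 3 alone, and PSMB2 had one in inactive replicate 3 alone. In all, 6 subunit genes had no peak over any window in any library: PSMA5, PSMA8, PSMB6, PSMB9, PSMD5 and PSMD10.

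Genes that work with the proteasome were examined as 4 lists with 32 genes. Downstream, 12 of the 32 had a peak in all 3 active libraries, as did 15 of the 43 subunit genes (34.9%) and 16.6% of all protein-coding genes. VCP, the segregase that extracts ubiquitinated proteins, and the assembly chaperone gene PSMG1 had one in all 6. These are 2 of the 32 genes, beside 4.46% of all protein-coding genes. NFE2L1, the activator of the subunit genes, was the only 1 of the 32 with downstream peaks in the 3 active libraries alone. This pattern was seen in 5.45% of all protein-coding genes. Fold enrichments at NFE2L1 were 3.62, 3.20 and 3.07. The proteasome factors ADRM1, USP14 and UBE3C had downstream peaks in all active libraries and in inactive replicate 3, with fold enrichments between 3.26 and 4.60. RAD23B, AKIRIN2, IPO9, PSMG2 and PSMG4 were also among the 12.

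At promoters, 3 of the 32 had a peak in all active libraries, against 3.90% of all protein-coding genes. ADRM1, the gene of a ubiquitin receptor of the regulatory particle, had fold enrichments of 3.49, 4.02 and 4.28, and VCP had 3.43, 3.81 and 3.38, with none listed in an inactive library for either gene. PSMG1 had a promoter peak in all 6 libraries, with fold enrichments of 13.2, 10.7 and 15.5 with active and 8.88, 6.92 and 8.19 with inactive SCP1. These are the highest fold enrichments of all peaks in the 3 active lists, and no promoter peak of a subunit gene exceeded 4.94. In the gene body, 9 of the 32 had a peak in all active libraries, against 15.0% of all genes, and PSMF1, ADRM1 and NFE2L1 were among them.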

How the data were processed

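Paired-end ChIP-seq with the pThr4 antibody was available as 6 peak lists, 3 per group, with samples grouped by their titles. Per the labels, the authors' processing notes name FastQC, cutadapt 4.6, Bowtie2 2.5.2 and hg38; the peak caller is not given in the sources used here. Deposited values of a peak are its place, fold enrichment (a ratio to background), −log10 p-value and −log10 q-value, called per library; no list held a −log10 q-value below 1. The deposited lists hold no read counts, so depth is unknown, no interval from counts can be given and precision rests on 3 libraries per group. A list with more peaks also reaches weaker ones, so counts of genes with a peak move with list length.

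Gene ends came from RefSeq (GRCh38.p14). Strand came from the promoter table for 38 subunit genes and by name from GENCODE release 44 for PSMA7, PSMB1, PSMB6, PSMB7 and PSMD4; of 18972 genes with both, 79 differed. Peaks on chromosomes 1 to 22 and X were joined to the windows by an overlap of at least 1 bp, and each gene was given the peak of highest −log10 p-value. Shares are set beside those of 19626 protein-coding genes. Covered lengths of single genes were compared by a two-sided exact permutation test over 20 assignments of libraries, with a smallest p of 0.1 (Python 3.11.15, pandas 2.3.3, scipy 1.17.1). The functions were tested on simulated data. Every gene with a peak over a window in at least 2 of 3 libraries of a group was named. Alternatives were equal peak number, stricter or common cutoffs, a 200-bp overlap, narrow windows, isolated genes, longer symbols, the replicate block and leaving out each library; the starts of the promoter table and replicates 1 and 2 alone were added after seeing the data. Members, lists and motifs were chosen with earlier results of these data known. Some genes of the pathway lists are not reported here.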

Additional observations from a re-analysis of the deposited data

How the results depend on the processing

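Of 135 recomputed values, 100 stayed within 1.5 times the reported count or within the spread between libraries, 34 moved and 1 reversed. This tally includes the replicate block, whose differences in mean genes per list (3, 14 and 16) equal the main ones by construction. Its gene-body and downstream counts rest on covered length, and were scored as moved against counts of listed peaks. With an equal peak number, the downstream difference between active and inactive SCP1 reversed to -0.667 genes, and the difference was 0 genes at promoters and 2.33 in gene bodies. The genes with peaks in all active and no inactive lists were then 1 in the gene body and 0 downstream, and those in all 6 lists 0, 0 and 1 for promoter, gene body and downstream. A common p cutoff gave differences of 4.67 genes in gene bodies and 3.67 downstream, 1 gene in all active and no inactive lists for each of these windows, and 0 genes in all 6 lists for all 3 windows. A −log10 q of at least 2 left 2 downstream genes in active lists alone and 0 genes in all 6 lists for all 3 windows. An overlap of at least 200 bp left 0 genes in all 6 lists for the gene body, narrow windows left 3 downstream genes in active lists alone, and the longer symbols raised the promoter genes in all 6 lists to 2. Isolated members, 16 of 43 downstream, gave a difference of 5.33 genes, with 2 in active lists alone and 0 in all 6. Within replicates 1 and 2, downstream genes in active lists alone numbered 8. The cause of these shifts was not tested beyond what the construction of each alternative fixes (fewer peaks, narrower windows, fewer genes).

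Leaving out 1 library gave 0 to 2 promoter, 4 to 7 gene-body and 5 to 8 downstream genes in all active and no inactive lists. The promoter count reached 2 (PSMA4 and PSMA6) without active replicate 1, the gene-body count 7 without active replicate 2, and the downstream count 8 without active replicate 1 or 2. Genes in all remaining lists numbered 1 to 4 in the gene body and 3 to 7 downstream, with the highest values without inactive replicate 2, whose list was the shortest, and 2 in the gene body without inactive replicate 1. The differences in mean genes per list ranged from 1 to 4.5 at promoters, 9.67 to 16.2 in gene bodies and 12.3 to 17.8 downstream.

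Deviations of same-numbered libraries correlated at 0.0191, 0.0189 and 0.00766 over 19626 genes, and not every library correlated best with its own number. These values cannot show whether same-numbered libraries came from matched aliquots. The permutation tests took the libraries as unpaired. With the replicate block, which counts a longer covered length within each same-numbered pair, 0 promoter, 12 gene-body and 14 downstream genes were higher with active SCP1, against 0, 11 and 13 by covered length without pairing.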

Other observations

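Genes named after subunits that encode no protein were counted where a peak touched any base of them. Of 50 pseudogenes, 3 had a peak in any library and 1 in at least 2 libraries, PSMA6P2, enriched 3.77-fold and 4.08-fold in active replicates 2 and 3 and 3.59-fold in inactive replicate 2. Of 7 lncRNA genes, 5 had a peak and 4 had one in at least 2 libraries, namely PSMA3-AS1, PSMD14-DT, PSMD6-AS1 and PSMD6-AS2. PSMA3-AS1, PSMD6-AS1 and PSMD6-AS2 overlap the subunit gene they are named after, and PSMD14-DT lies upstream of PSMD14 without overlapping it. PSMD14-DT, named as the divergent transcript of PSMD14, ends at chr2:161254643, whereas PSMD14 starts at chr2:161308425. PSMD14-DT was listed in all 3 active and no inactive libraries, at fold enrichments of 3.56, 4.58 and 3.29. The promoter window of PSMD14 had no peak. Other genes over PSMD14-DT were not examined, and the share of all lncRNA genes with this pattern was not computed. PSMC3IP, a recombination factor named after its binding to the ATPase PSMC3, had a promoter peak in all 6 libraries, with fold enrichments of 4.95, 3.77 and 5.28 with active and 3.83, 4.05 and 3.84 with inactive SCP1, and more of its promoter window was covered in every active library (1600, 1519 and 1549 bp) than in any inactive one (319, 567 and 1192 bp, exact permutation test, p = 0.1). In every library the strongest of these peaks also overlapped the downstream windows of MLX and RETREG3.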
